A study of Mus musculus with 14 samples.

Results

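The Fc receptor genes Fcgr1, Fcgr2b, Fcgr3, Fcgr4 and Fcer1g were followed across 4 groups of sorted mouse bone marrow progenitors. They are 5 of the 19155 genes measured, and each was read by the 1 probe set that the array annotation gives to its symbol. The set was taken by gene name, with earlier results of these data known. Multipotent progenitors of 2 kinds were sorted from wild-type C57BL/6 mice, either young (8 to 10 weeks) or old (24 months). MPP3, the myeloid-biased progenitors, lacked lineage markers and Flk2 and carried cKit, Sca-1 and CD48. The series record gives them as negative for CD150, whereas the methods text gives them as positive. MPP4, the lymphoid-biased ones, were Lin-/cKit+/Sca-1+ cells that carried Flk2. MPP3 were run on 3 arrays at either age and MPP4 on 5 arrays for young and 3 for old mice, and the methods call these independent biological replicates. Each array carried linearly amplified RNA of 20000 cells that had been sorted through the gate in 2 passes. No Fc receptor was part of the gate.

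Fc receptors bind the constant part of antibodies and turn antigen bound by antibody into a signal in the cell. Fcgr1, Fcgr3 and Fcgr4 encode activating receptors for IgG, which reach the surface and signal with the common gamma chain encoded by Fcer1g, whose cytoplasmic ITAM is phosphorylated by Src family kinases and then recruits the kinase Syk. Fcgr2b encodes the inhibitory receptor for IgG, whose ITIM recruits phosphatases such as SHIP1. In bone marrow, surface Fc gamma receptor (CD16/32, the products of Fcgr3 and Fcgr2b) is a standard marker of granulocyte and macrophage progenitors.

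The arrays gave a rank-based score. On each array the ranked probe sets were mapped to an exponential reference. There a share of exp(-v) lies at or above a normalized value of v. Shares counted over the deposited probe sets depart somewhat from exp(-v), and the shares below are given as counted. Differences are given in units of the normalized value and never as folds. Array medians lay between 0.662 and 0.675, and correlations between arrays across probe sets between 0.948 and 0.994. Flt3, which encodes Flk2, lay between 1.42 and 2.20 on the MPP3 arrays and between 2.77 and 3.53 on the MPP4 arrays, in the direction the sort sets. By their dimmest probe sets the arrays fell into 2 clusters, called array sets here, which the labels do not mention. Set 1 held all 6 old arrays together with replicate 1 of young MPP3 and replicates 1 and 2 of young MPP4, and set 2 the other 5 young arrays. Xist, the RNA of the inactive X chromosome, was above 1 on 4 young arrays (MPP3 replicate 1 and MPP4 replicates 1, 4 and 5) and on none of the old ones. Eif2s3y, a gene of the Y chromosome, was at 0.0221 and 0.0261 on replicate 1 of young MPP3 and of young MPP4, and at 0.855 to 2.06 on the other arrays. The age groups therefore differ in these signals of sex, and the part of sex in the age differences was not settled. Since the young arrays are also listed in an earlier series and the old ones are not, age and series cannot be told apart here.

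Of the 5 genes, 4 lie on chromosome 1, with Fcgr2b, Fcgr4 and Fcgr3 in direct succession and Fcer1g a few genes further on, while Fcgr1 lies on chromosome 3. The upstream sequences below are shown because Fcgr3, Fcer1g and Fcgr2b had the largest differences between old and young MPP3. They cover the 250 bases before the RefSeq start of transcription in GRCm38.p6, 5' to 3' on the strand of the gene, at chr1:171059404-171059653 (minus strand) for Fcgr3, chr1:171234350-171234599 (minus strand) for Fcer1g and chr1:170976072-170976321 (minus strand) for Fcgr2b. Capitals mark the letters GAGGAA on either strand, the core of the site read by PU.1, an ETS factor of myeloid cells.
Fcgr3: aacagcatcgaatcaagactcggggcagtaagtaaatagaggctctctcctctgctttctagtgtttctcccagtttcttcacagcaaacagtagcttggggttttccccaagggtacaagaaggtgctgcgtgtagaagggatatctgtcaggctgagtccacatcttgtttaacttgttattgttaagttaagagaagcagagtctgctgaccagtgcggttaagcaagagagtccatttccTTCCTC
Fcer1g: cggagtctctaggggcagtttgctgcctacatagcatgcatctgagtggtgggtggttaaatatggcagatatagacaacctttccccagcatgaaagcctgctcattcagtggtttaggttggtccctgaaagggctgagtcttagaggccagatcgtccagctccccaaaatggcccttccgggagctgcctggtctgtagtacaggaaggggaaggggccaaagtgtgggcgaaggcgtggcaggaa
Fcgr2b: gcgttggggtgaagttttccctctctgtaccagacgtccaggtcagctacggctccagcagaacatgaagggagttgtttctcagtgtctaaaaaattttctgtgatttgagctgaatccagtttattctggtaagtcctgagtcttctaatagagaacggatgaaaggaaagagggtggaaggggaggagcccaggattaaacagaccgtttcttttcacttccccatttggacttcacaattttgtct

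GAGGAA was present once, on the opposite strand, in the windows of Fcgr3, Fcgr4 and Fcgr1, and in neither that of Fcgr2b nor that of Fcer1g. It began 6 bases before the first RefSeq start of Fcgr3 (and 15 bases before its other listed start, 9 bases away), 22 bases before that of Fcgr4 and 55 bases before that of Fcgr1. Of 32851 promoter windows of the same length, 7639 (23.3%) held the motif. A match describes letters in a window and is no evidence of binding, and no match says only that these letters are not there.

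Fcgr3, the low-affinity activating receptor CD16, was highest in old MPP3. It stood at 1.27, 1.85 and 1.34 on the 3 old MPP3 arrays and at 0.771, 0.873 and 0.693 on the 3 young ones. In MPP4 the young arrays gave 0.504, 0.521, 0.460, 0.528 and 0.468, and the old arrays 0.528, 0.454 and 0.504. All 3 old MPP3 arrays lay above all other arrays, all 3 young MPP3 arrays lay above the 8 MPP4 arrays, and young and old MPP4 overlapped. In terms of rank, 12.96% to 25.7% of probe sets lay at or above Fcgr3 on the old MPP3 arrays, 39.9% to 48.6% on the young MPP3 arrays and 57.9% to 62.8% on the MPP4 arrays. Fewer Fcgr3-expressing cells and less Fcgr3 RNA per cell cannot be told apart in such bulk samples.

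The mean of Fcgr3 was 1.49 ± 0.318 (SD, n = 3) in old MPP3 and 0.779 ± 0.0906 (SD, n = 3) in young MPP3, a difference of 0.708 ± 0.167 (SE, 95% interval 0.285 to 1.13). This did not pass the threshold over all genes in limma (adjusted p = 0.500), and the exact permutation test gave p = 0.1, the smallest that 3 arrays against 3 allow. In MPP4 the age difference was -0.000773 ± 0.0260 (SE, 95% interval -0.0617 to 0.0601, adjusted p = 0.997 in limma). The age differences of the 2 populations were 0.709 ± 0.156 apart (SE, 95% interval 0.368 to 1.05), with an unadjusted p of 7.62e-04 and an adjusted p of 0.524 in limma. With array weights the same contrast was 0.605 with an adjusted p of 0.0345, and over all its alternatives the adjusted p ran from 0.0345 to 0.950. For the age difference in MPP3 it ran from 0.0861 to 1.00.

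Between populations Fcgr3 was lower in MPP4 at both ages. In young mice the difference was -0.283 ± 0.0415 (SE, 95% interval -0.380 to -0.186), with an adjusted p of 0.0672 in limma and p = 0.0357 in the exact permutation test, the smallest that 5 arrays against 3 allow. It was -0.258 among the young arrays of set 1 and -0.298 among those of set 2, and the adjusted p over the alternatives ran from 0.0202 (array weights) to 0.620. In old mice, where all 6 arrays belong to set 1, it was -0.992 ± 0.162 (SE, 95% interval -1.40 to -0.581, adjusted p = 0.239 in limma). This call differed between fits: the adjusted p was 0.00932 in 1 fit of all 4 groups, 0.0123 with the array set as a term and 0.0493 on normal scores of the ranks, and up to 0.606 elsewhere. Without old MPP3 replicate 2, the array with the highest Fcgr3, the old population difference was -0.809 and the age difference in MPP3 was 0.525.

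**Figure D1:**
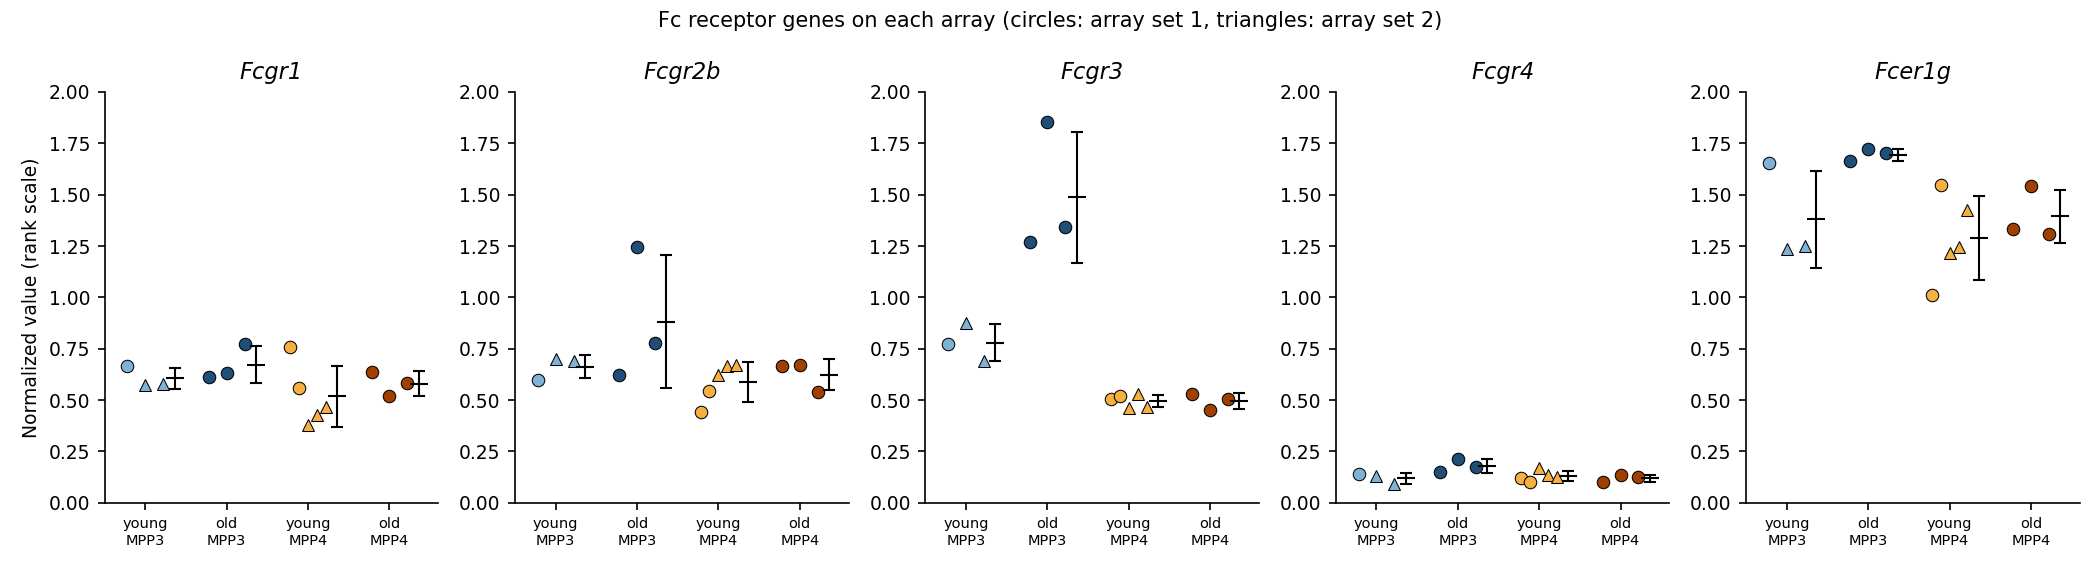
Normalized value (rank scale, vertical axis) of each Fc receptor gene on the 14 arrays, by group, with the mean and SD beside the points; circles are arrays of set 1 and triangles arrays of set 2. Fcgr3 lies between 1.27 and 1.85 in old MPP3 and between 0.454 and 0.528 on all 8 MPP4 arrays, while Fcgr4 stays at or below 0.214 on every array.

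Fcer1g, the signaling chain that the activating receptors share, was in the upper part of the ranking in every group. It was at 1.66, 1.72 and 1.70 in old MPP3 and at 1.65, 1.24 and 1.25 in young MPP3. In young MPP4 it was at 1.01, 1.55, 1.22, 1.25 and 1.43, and in old MPP4 at 1.33, 1.54 and 1.31. The old MPP3 arrays were close together and above all others, although young MPP3 replicate 1, at 1.65, came close to the lowest of them, at 1.66. The remaining groups overlapped.

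The age difference of Fcer1g in MPP3 was 0.315 ± 0.122 (SE, 95% interval 0.00727 to 0.623, adjusted p = 0.603 in limma). It rested on the 2 young arrays of set 2: against the single young MPP3 array of set 1 it was 0.0414, and without that array it was 0.452. In MPP4 it was 0.105 ± 0.122 (SE, 95% interval -0.180 to 0.391, adjusted p = 0.813 in limma), from 0.0318 without old MPP4 replicate 2 to 0.170 without young MPP4 replicate 2. The population difference, MPP4 minus MPP3, was -0.301 ± 0.0682 in old mice (SE, 95% interval -0.473 to -0.128, adjusted p = 0.337 in limma). In young mice it was -0.0910 ± 0.144 (SE, 95% interval -0.428 to 0.246, adjusted p = 0.894 in limma), and it was -0.376 within set 1 but 0.0532 within set 2. The age differences of MPP3 and MPP4 were 0.210 ± 0.184 apart (SE, 95% interval -0.193 to 0.613, adjusted p = 0.909 in limma).

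Fcgr2b, the inhibitory receptor CD32, was near the middle of the ranking, with 1 array apart. It was at 0.621, 1.24 and 0.778 in old MPP3 and at 0.597, 0.699 and 0.690 in young MPP3. In young MPP4 it was at 0.441, 0.546, 0.621, 0.666 and 0.671, and in old MPP4 at 0.666, 0.668 and 0.539. Old MPP3 replicate 2, the array that also had the highest Fcgr3, was above all others, and every pair of groups overlapped. The age difference in MPP3 was 0.219 ± 0.166 (SE, 95% interval -0.201 to 0.639, adjusted p = 0.756 in limma) and went to 0.0374 without that array and to 0.348 without old MPP3 replicate 1. The difference between old MPP4 and old MPP3, -0.256 ± 0.168 (SE, 95% interval -0.682 to 0.169, adjusted p = 0.672 in limma), went to -0.0750 without it and to -0.386 without old MPP3 replicate 1. In MPP4 the age difference was 0.0356 ± 0.0609 (SE, 95% interval -0.107 to 0.178, adjusted p = 0.887 in limma), and in young mice MPP4 minus MPP3 was -0.0732 ± 0.0585 (SE, adjusted p = 0.731 in limma), or -0.0361 without young MPP4 replicate 1. Fcgr2b and Fcgr3 have similar coding sequences for their extracellular parts, and whether the probes of one also took up RNA of the other was not tested.

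Fcgr1, the high-affinity receptor CD64 of monocytes and macrophages, overlapped between all groups. It was at 0.613, 0.632 and 0.774 in old MPP3 and at 0.666, 0.573 and 0.577 in young MPP3. In young MPP4 it was at 0.758, 0.559, 0.380, 0.426 and 0.467, and in old MPP4 at 0.639, 0.518 and 0.584. In young MPP4 the 2 arrays of set 1 were above the 3 of set 2, and in young MPP3 the single array of set 1 was likewise the highest. The age difference was 0.0674 ± 0.0560 in MPP3 (SE, 95% interval -0.0741 to 0.209, adjusted p = 0.780 in limma) and 0.0624 ± 0.0849 in MPP4 (SE, 95% interval -0.137 to 0.261, adjusted p = 0.848 in limma). Without old MPP3 replicate 3 the former was 0.0166. The latter ran from 0.0278 without young MPP4 replicate 3 to 0.122 without young MPP4 replicate 1. With the array set as a term both turned negative, to -0.0546 and -0.0474. MPP4 minus MPP3 was -0.0875 ± 0.0845 in young mice (SE, 95% interval -0.285 to 0.110, adjusted p = 0.794 in limma) and -0.0926 ± 0.0567 in old mice (SE, adjusted p = 0.649 in limma). Without young MPP4 replicate 1 the young value was -0.148 and without young MPP4 replicate 3 it was -0.0530, and without old MPP3 replicate 3 the old value was -0.0418.

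Fcgr4, the activating receptor CD16-2 of monocytes, macrophages and neutrophils, was dim throughout, with 80.9% to 91.6% of probe sets at or above it. It was at 0.148, 0.214 and 0.176 in old MPP3 and at 0.140, 0.128 and 0.0904 in young MPP3. In young MPP4 it was at 0.121, 0.0988, 0.169, 0.136 and 0.127, and in old MPP4 at 0.101, 0.134 and 0.126. The old MPP3 arrays were above the young MPP3 and the old MPP4 arrays but overlapped with young MPP4. The age difference in MPP3 was 0.0596 ± 0.0303 (SE, 95% interval -0.0171 to 0.136, adjusted p = 0.665 in limma), and in MPP4 it was -0.0102 ± 0.0205 (SE, adjusted p = 0.908 in limma), or -0.000433 without old MPP4 replicate 1. MPP4 minus MPP3 was -0.0591 ± 0.0257 in old mice (SE, 95% interval -0.124 to 0.00599, adjusted p = 0.548 in limma) and 0.0107 ± 0.0232 in young mice (SE, adjusted p = 0.930 in limma). At this rank most of the table lies above the probe set, and whether the probe set was above background could not be read from the deposited values.

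The 4 groups could be ordered in part for Fcgr3 and Fcer1g. For Fcgr3 old MPP3 was above young MPP3 and young MPP3 above young MPP4 without overlap, and young and old MPP4 could not be ordered. For Fcer1g old MPP3 was above the next group, old MPP4, without overlap, and the other neighbors in the order overlapped. For Fcgr1, Fcgr2b and Fcgr4 each pair of neighboring groups overlapped.

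No Fc receptor gene passed the adjusted threshold of 0.05 in limma in any of the 5 contrasts. In old versus young MPP3 the count was 0 of 5, where 0% of all genes passed, and 2 of 5 (Fcgr3 and Fcer1g, both higher in old) had an unadjusted p under 0.05, where 8.19% of all genes did. The 3 old arrays lay above the 3 young ones for 3 of 5 (Fcgr3, Fcgr4 and Fcer1g), against 6.14% of all genes in that direction. In old versus young MPP4 it was 0 of 5 at the adjusted threshold (0% of all genes), 0 of 5 at an unadjusted p under 0.05 (9.77% of all genes) and 0 of 5 with old above young without overlap (3.28% of all genes). All 5 had a higher mean in old MPP3 (median difference 0.219), and 3 of 5 in old MPP4 (median difference 0.0356). Over the 19155 genes, 9605 were higher in mean in old than in young MPP3 and 9533 in old than in young MPP4, with median differences of 0.000183 and -0.000171.

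In MPP4 versus MPP3 of young mice the count was 0 of 5, where 25 genes (0.131% of all genes) passed, and 1 of 5 (Fcgr3, lower in MPP4) had an unadjusted p under 0.05, where 11.0% of all genes did. The same gene was the 1 of 5 with all MPP4 arrays below all MPP3 arrays, against 3.72% of all genes. In old mice the count was 0 of 5 (0% of all genes), 2 of 5 (Fcgr3 and Fcer1g) had an unadjusted p under 0.05 (9.83% of all genes), and 3 of 5 (Fcgr3, Fcgr4 and Fcer1g) had MPP4 below MPP3 without overlap (7.60% of all genes). All 5 were lower in mean in old MPP4 than in old MPP3 (median difference -0.256), and 4 of 5 were so in young mice (-0.0875). The difference between the age differences passed for 0 of 5 (0% of all genes), and 1 of 5 (Fcgr3) had an unadjusted p under 0.05, where 6.26% of all genes did. These comparisons share arrays: the old MPP3 arrays that are high in one are the same in the others.

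**Figure D2:**
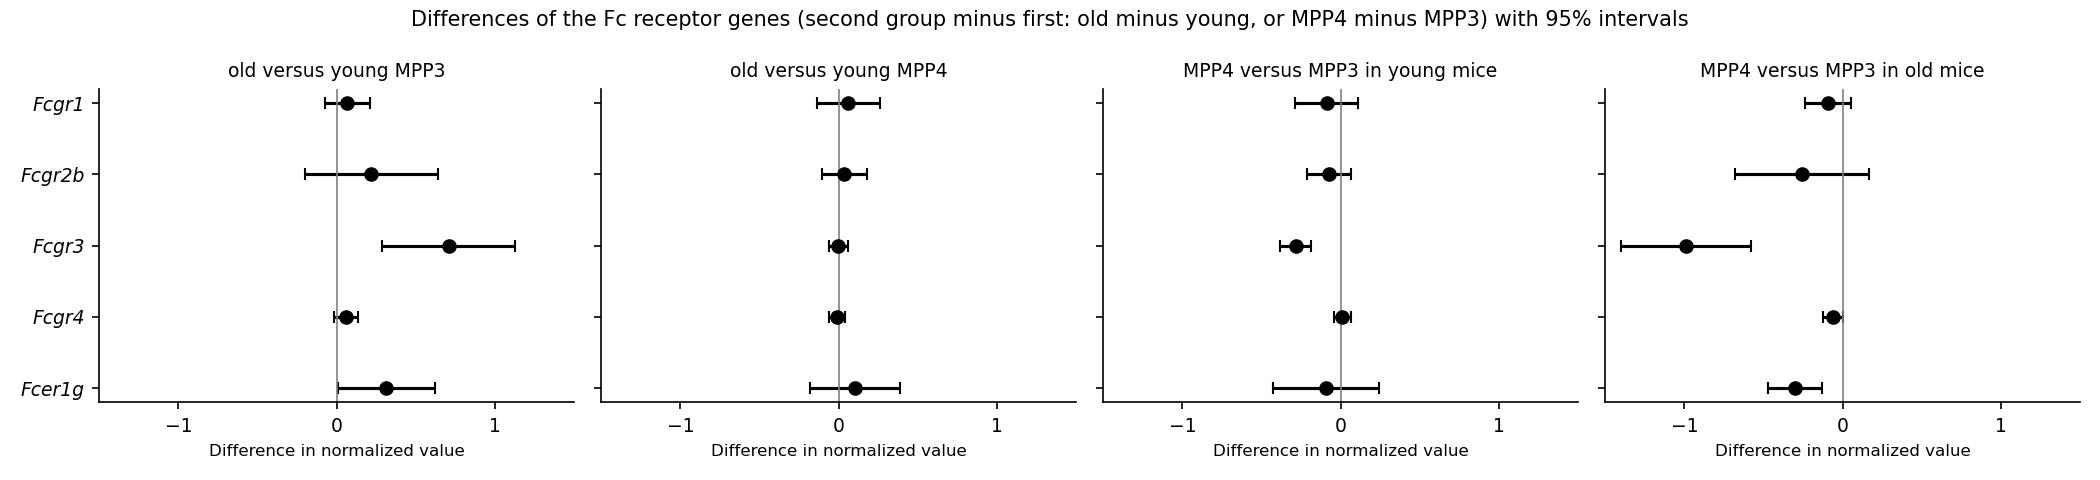
Difference in normalized value (horizontal axis) of each Fc receptor gene in the 4 comparisons of 2 groups, with the 95% interval of the limma fit; the direction is old minus young, or MPP4 minus MPP3. The intervals of Fcgr3 lie apart from 0 in 3 comparisons and span -0.0617 to 0.0601 in old versus young MPP4.

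Of the genes that work with the receptors, none passed the adjusted threshold in limma for age in either population. The share of all genes that passed was also 0% in both. The pathway list held 66 measured genes: 12 other receptors for antibody Fc parts and their subunits, 10 adaptor chains and receptors that use the Fcer1g chain, 30 kinases and adaptors of the activating signal, and 14 phosphatases and adaptors of the inhibitory one. In old versus young MPP3 none of the 66 passed in limma, and 7 (1 higher, 6 lower) had an unadjusted p under 0.05, a share of 10.6% near the 8.19% of all genes. The mean was higher in old MPP3 for 9 of 12 other receptors (median difference 0.0456), 6 of 10 adaptor chains and partners (0.0475), 16 of 30 kinases and adaptors (0.00529) and 5 of 14 inhibitory genes (-0.0378). That made 36 of 66 (54.5%) over the whole list, against 50.1% of all genes, and its median difference was 0.00858.

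Among the receptors the chains of the high-affinity IgE receptor of mast cells and basophils differed most. Ms4a2, its beta chain, lay between 0.210 and 0.832 in old MPP3 and between 0.135 and 0.200 in young MPP3 (difference 0.430 ± 0.174 (SE), adjusted p = 0.615 in limma). Fcer1a, the alpha chain that binds IgE, lay between 0.258 and 2.10 in old MPP3 and between 0.188 and 0.711 in young MPP3, with overlap (0.868 ± 0.488 (SE), adjusted p = 0.687 in limma). This receptor also uses the Fcer1g chain. Among the partners, Clec4e, which encodes the C-type lectin Mincle and signals through Fcer1g, was at 1.38 to 1.40 in old MPP3 and at 0.972 to 1.26 in young MPP3 (0.301 ± 0.0762 (SE), adjusted p = 0.507 in limma). Cd247, the zeta chain of the T cell receptor, lay lower, at 0.638 to 0.721 in old and 0.905 to 0.983 in young MPP3 (-0.254 ± 0.0372 (SE), adjusted p = 0.471 in limma). In 1 fit of all 4 groups Cd247 passed, with an adjusted p of 0.0451.

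The intracellular genes with the largest statistics lay lower in old MPP3 in most cases. Syk, the kinase that binds phosphorylated ITAMs, was at 1.54 to 1.72 in old and 1.73 to 1.83 in young MPP3 (-0.167 ± 0.0562 (SE), adjusted p = 0.565 in limma). Pik3cd, a catalytic subunit of PI3 kinase, was at 0.924 to 1.19 in old and 1.24 to 1.42 in young MPP3, and Dok2, an inhibitory adaptor, at 1.10 to 1.30 in old and 1.38 to 1.54 in young MPP3, both without overlap. Ptpn6, which encodes the phosphatase SHP-1, overlapped between the ages (0.225 ± 0.114 (SE), adjusted p = 0.666 in limma). Pik3cd and Dok2 differed by -0.250 and -0.256. Old lay below young MPP3 without overlap for 7 of the 66 pathway genes, against 1541 of all 19155 genes.

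In MPP4, where the age difference of Fcgr3 was close to 0, none of the 66 pathway genes passed (0% of all genes). An unadjusted p under 0.05 in limma was reached by 9 (5 higher, 4 lower), or 13.6% against 9.77% of all genes. The mean was higher in old MPP4 for 32 of the 66 (48.5%, against 49.8% of all genes), with a median difference of -0.00136. Clec4e again lay higher in the old cells, at 1.31 to 1.39 against 0.443 to 0.980 (0.614 ± 0.112 (SE), adjusted p = 0.287 in limma), and passed with array weights (0.537, adjusted p = 0.0428). Fcrls lay at 0.260 to 0.304 in old against 0.171 to 0.242 in young MPP4, also without overlap. Fcrlb, Clec4d, Pik3cd, Pik3r1, Ptpn22 and Dok2 were the other genes with the largest statistics in their lists, with differences between -0.217 and 0.151 and overlapping ranges.

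Between MPP4 and MPP3 of young mice none of the 66 pathway genes passed, where 25 genes (0.131% of all genes) did. An unadjusted p under 0.05 in limma was reached by 14 (6 higher in MPP4, 8 lower), or 21.2% against 11.0% of all genes. Lcp2, the adaptor SLP-76, had the same adjusted p as Fcgr3 (0.0672 in limma), at 2.19 to 2.36 in MPP4 and 2.53 to 2.58 in MPP3. Tyrobp, the ITAM adaptor DAP12 of myeloid and NK cell receptors, was at 2.54 to 2.72 in MPP4 and 2.70 to 2.92 in MPP3, and Cd247 at 0.739 to 0.854 against 0.905 to 0.983. Pik3r1, the regulatory subunit of PI3 kinase, was higher in MPP4 without overlap in young mice (0.300 ± 0.0782 (SE), adjusted p = 0.238 in limma) and in old mice (0.247 ± 0.0349 (SE), adjusted p = 0.222 in limma). Fcrla, Fcrl1, Dok3 and Pag1 completed the set in young mice, with differences between -0.222 and 0.149.

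In old mice none of the 66 passed (0% of all genes). An unadjusted p under 0.05 in limma was reached by 7 (5 higher in MPP4, 2 lower), a share of 10.6% near the 9.83% of all genes. Fcer1a, at 0.168 to 0.213 in MPP4 against 0.258 to 2.10 in MPP3, and Ms4a2, at 0.116 to 0.152 against 0.210 to 0.832, lay lower in MPP4 without overlap, as Fcgr3 did. So did Clec4a2, a lectin receptor of myeloid cells, at 0.0823 to 0.108 in MPP4 against 0.301 to 1.22 in MPP3. Cd247, Plcg1 and Pag1 lay higher in old MPP4 without overlap, with differences of 0.0913, 0.147 and 0.209, and Cblb overlapped. Without overlap, 6 of the 66 lay higher in MPP4 and 5 lower, against 1730 and 1456 of all 19155 genes.

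**Figure D3:**
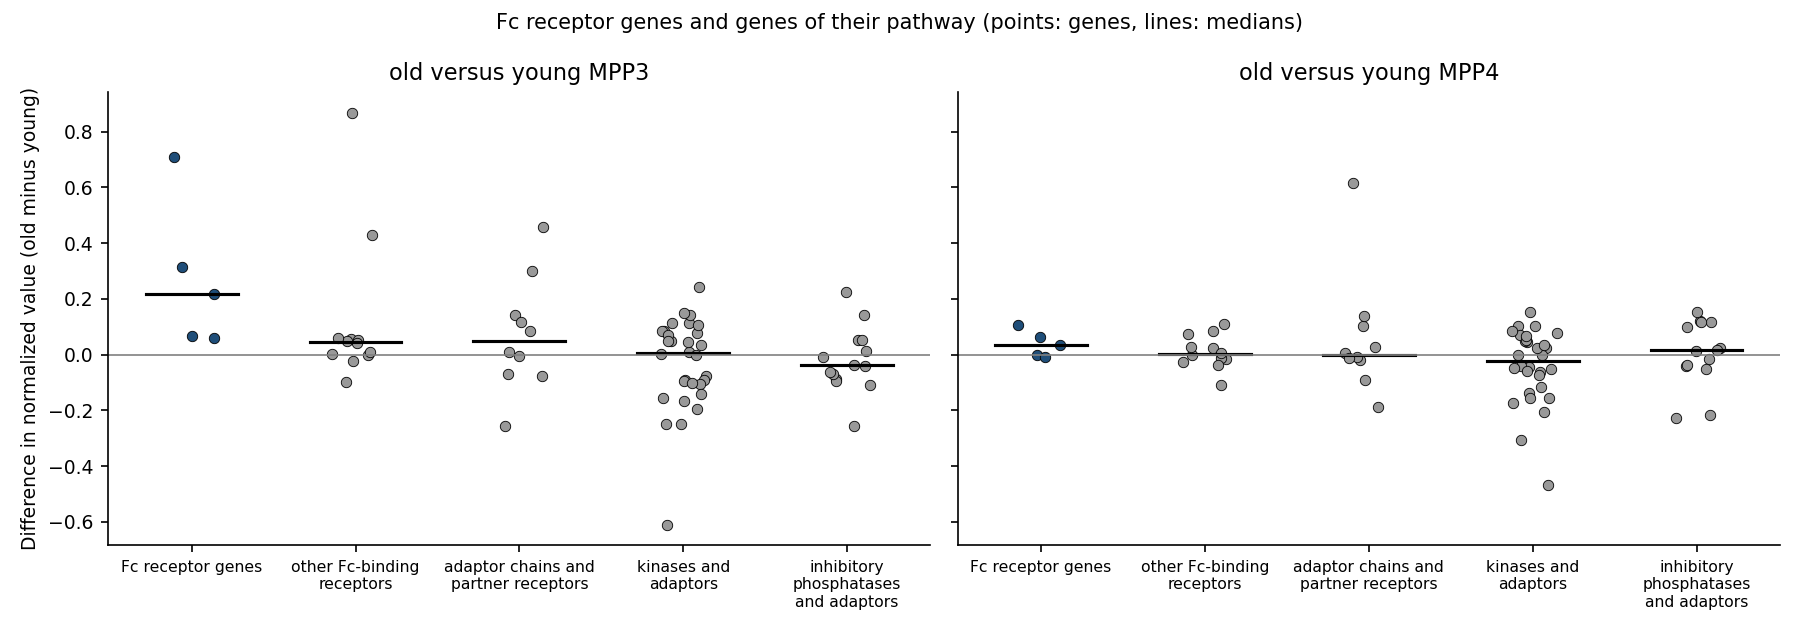
Old minus young difference in normalized value (vertical axis) in MPP3 and MPP4 for the 5 Fc receptor genes and the 66 genes of the 4 pathway lists; each point is a gene and each line a list's median. In MPP3 the median is 0.219 for the Fc receptor genes and between -0.0378 and 0.0475 for the other lists.

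Over the 14 arrays the highest Pearson correlations of Fcgr3 were with Trem3 (0.965), Vcam1 (0.960), Rab44 (0.952), Elane (0.951) and S100a8 (0.946). Elane encodes neutrophil elastase and S100a8 a calcium-binding protein of neutrophils and monocytes. After each group's mean was removed the highest were with Vcam1 (0.971), Clec4a2 (0.967), Aff2 (0.952), Mgam (0.952) and Cers6 (0.948). These correlations are across arrays that share groups, array sets and normalization, and they describe 14 points of which old MPP3 replicate 2 is the highest.

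The other Fc receptor genes had other neighbors. After removal of the group means Fcgr3 correlated at 0.825 with Fcgr2b, at 0.514 with Fcgr4, at -0.0429 with Fcgr1 and at 0.0126 with Fcer1g over the 14 arrays. Without that removal the values were 0.790, 0.731, 0.445 and 0.647. Old MPP3 replicate 2 was the highest array for Fcgr3, Fcgr2b and Fcgr4 (1.85, 1.24 and 0.214), and its part in these correlations was not tested. Fcgr2b was closest to Cdkl3, Pstpip2, Arhgdib, Dcpp2 and Ccdc93 within groups (0.918 to 0.898) and to Clec4a2, Pstpip2, Pcyt1a, Mgl2 and Aff2 in its values (0.926 to 0.888). Fcer1g was closest to Olfr60, AY074887, Brd3, Tcea1 and Eri1 within groups (0.913 to 0.886) and to Ccdc77, Slk, Brd3, Mogat1 and Rnase12 in its values (0.866 to 0.848). Clec4a2 and Aff2 stood in the within-group list of Fcgr3 and in the list by values of Fcgr2b, while lists of the same kind of these receptors shared no gene. Fcgr1 was closest to Pdlim2 both ways (0.954 and 0.939), and Fcgr4 to Il21 (0.866) within groups and Dio2 (0.868) in its values.

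Markers of granulocyte and macrophage progenitors reached their highest sums in old MPP3, where Fcgr3 was also highest, but the sums overlapped with young MPP3. For age in MPP3, 0 of 15 passed the adjusted threshold in limma, where 0% of all genes did. All 15 of 15 listed genes were measured, and their summed value was 25.0 to 39.7 in old MPP3, 21.1 to 27.8 in young MPP3, 16.5 to 19.6 in young MPP4 and 18.6 to 19.8 in old MPP4. The mean was higher in old MPP3 for 14 of 15, and 0 of 15 had an unadjusted p under 0.05 (8.19% of all genes). In 1 of 15 old lay above young without overlap (6.14% of all genes). Mpo, the myeloperoxidase gene, was at 4.17 to 6.03 in old MPP3 against 3.85 to 4.63 in young MPP3. Csf1r, the receptor of macrophage colony-stimulating factor, overlapped, at 0.285 to 0.710 against 0.383 to 0.412. Old MPP3 replicate 3 had a summed progenitor value of 25.0, inside the range of young MPP3, together with an Fcgr3 value of 1.34, above that of young MPP3. On the same array the neutrophil sum (10.2) and the monocyte and macrophage sum (10.9) lay above the young MPP3 ranges. Its mast cell, basophil and eosinophil sum (6.68) lay inside.

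Among markers of mature cells that carry Fc receptors, the neutrophil sums and the monocyte and macrophage sums were also higher in old MPP3. The mast cell, basophil and eosinophil sums overlapped between the ages, and not every marker was higher in old MPP3. By mean, 8 of 12 neutrophil, 9 of 14 monocyte and macrophage, and 8 of 10 mast cell, basophil and eosinophil markers were higher in old MPP3. The others (4, 5 and 2) were lower. An unadjusted p under 0.05 in limma was reached in either direction by 3, 4 and 2 genes of these lists, against 8.19% of all genes. Of these, 3, 3 and 2 were higher in old MPP3. Old lay above young without overlap for 2 in each list, against 6.14% of all genes. It lay below young without overlap for 1, 1 and 0, against 1541 of all 19155 genes. The 12 of 12 neutrophil markers summed to 8.76 to 12.96 in old MPP3 and 6.32 to 8.05 in young MPP3, with means from 0.0624 and 0.0696 (Ly6g, a defining surface marker, the lowest) to 2.79 and 2.17 (S100a9, the highest). The 14 of 15 monocyte and macrophage markers summed to 10.9 to 13.4 against 9.65 to 9.79, with Adgre1, which encodes F4/80, the lowest at means of 0.197 and 0.112, and Ms4a6c the highest in old MPP3 at 2.18. The 10 of 10 mast cell, basophil and eosinophil markers summed to 6.68 to 12.5 against 5.59 to 8.02, with Cd200r3 the lowest at means of 0.0623 and 0.0319, Prg2 the highest in old MPP3 at 2.64 and Cpa3 the highest in young MPP3 at 1.67. In MPP4 the neutrophil sums were 4.23 to 5.29 in young and 4.21 to 5.53 in old mice, the monocyte and macrophage sums 9.08 to 9.79 and 9.61 to 10.6, and the mast cell sums 3.10 to 4.60 and 3.92 to 4.55. The lineage antibodies of the sort, which included CD11b, Gr1 and B220, are directed against mature myeloid and B cells. The part of such cells in the Fcgr3 result was not tested.

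The 9 of 10 B lineage markers summed to 5.42 to 10.7 in old MPP3, 5.32 to 10.2 in young MPP3, 5.02 to 9.72 in young MPP4 and 6.22 to 7.56 in old MPP4, with overlap. Fcgr2b is also expressed by B cells, and the part of these cells in its values was not tested. The 8 of 10 T and NK cell markers summed to 2.65 to 3.28 in old and 2.49 to 3.23 in young MPP3, and the 7 of 10 erythroid and megakaryocyte markers to 4.75 to 5.83 and 5.59 to 6.07. Of the gate genes, Kit was at 2.63 to 3.02 in old and 3.03 to 3.10 in young MPP3, and Cd48 at 2.34 to 2.48 and 2.50 to 2.69, both with old below young without overlap. That held for 2 of the 4 gate genes measured and for 1541 of all 19155 genes. Flt3 overlapped, at 1.42 to 2.10 in old and 2.02 to 2.20 in young MPP3, as did Slamf1, at 0.126 to 0.251 and 0.111 to 0.168.

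**Figure D4:**
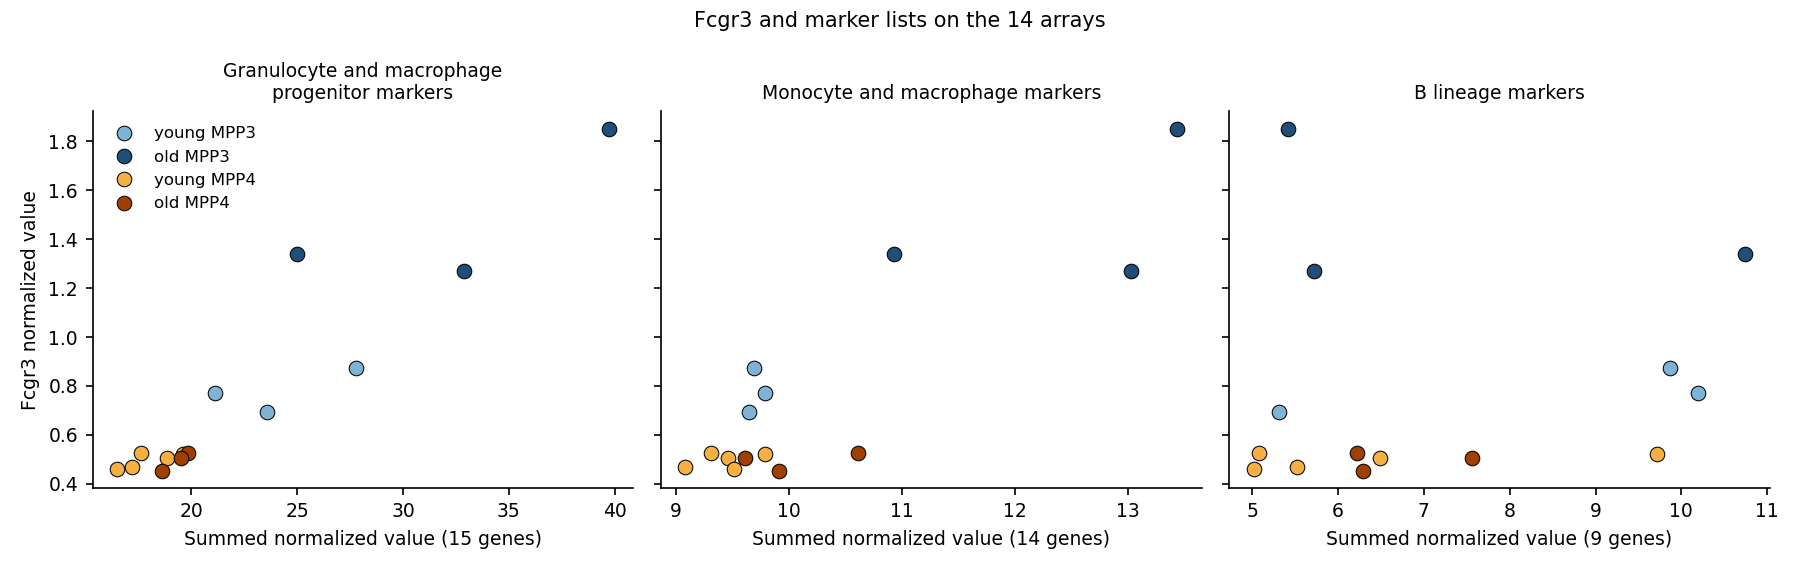
Normalized value of Fcgr3 (vertical axis) against the summed normalized value of the granulocyte and macrophage progenitor, monocyte and macrophage, and B lineage markers (horizontal axes) on each of the 14 arrays, colored by group. The old MPP3 arrays lie at 25.0 to 39.7 in the first panel and at 10.9 to 13.4 in the second, and in the third the groups overlap.

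The genes beside the Fc receptor genes on chromosome 1 had smaller age differences than Fcgr3, which were not tested against it. Along the RefSeq order of GRCm38.p6, 17 protein-coding genes from Fcrlb to B4galt3 enclose the 4 genes, and 14 of them were measured. The 10 that are not Fc receptor genes of this set differed between old and young MPP3 by -0.103 to 0.239. Of these, 4 of 10 were higher in old (50.1% of all genes). None had an unadjusted p under 0.05 in limma, where 8.19% of all genes did. None had old above young without overlap (6.14% of all genes), so with 10 genes these counts do not set the neighbors apart from other genes. Cfap126, which follows Fcgr3, differed by 0.0750 ± 0.0749 (SE), and Adamts4, which follows Fcer1g among the measured genes, by -0.103 ± 0.0423 (SE) with old below young without overlap. Tomm40l had the highest of these differences, 0.239 ± 0.105 (SE). In MPP4 the 10 differed by -0.109 to 0.164, and 2 had an unadjusted p under 0.05 in limma (Fcrlb and Tomm40l), where 9.77% of all genes did.

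**Figure D5:**
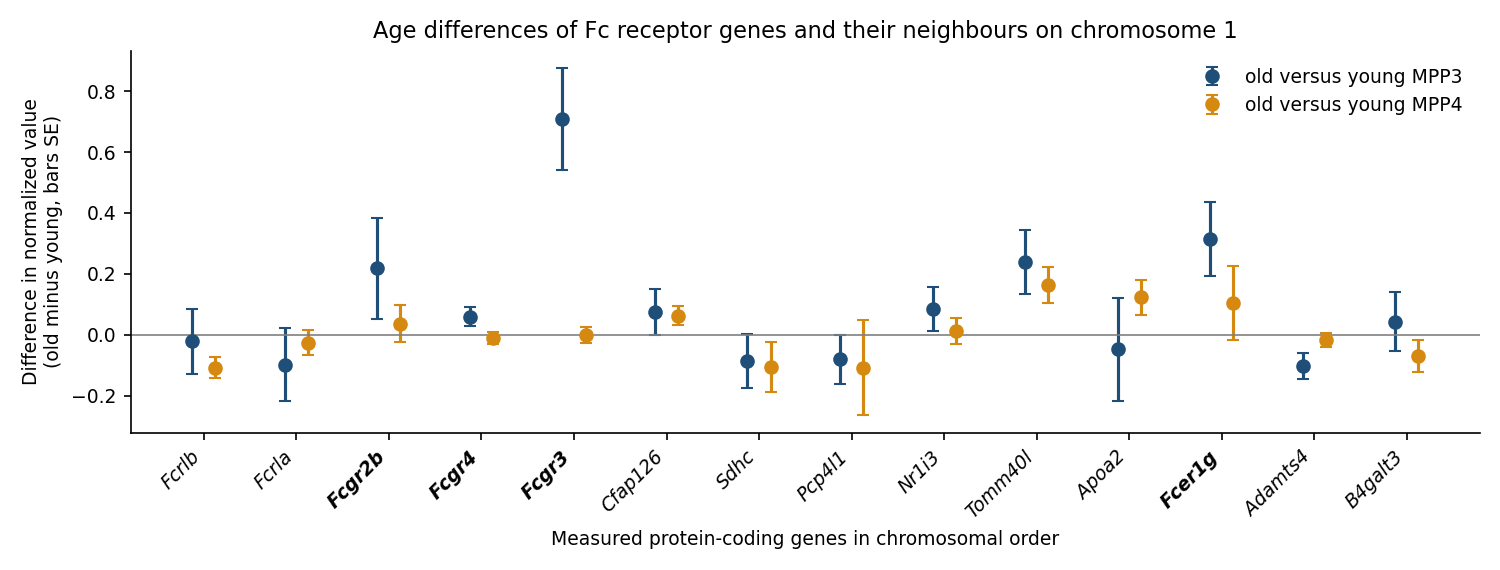
Old minus young difference in normalized value with its SE (vertical axis) for the measured protein-coding genes around the Fc receptor genes of chromosome 1, in chromosomal order (horizontal axis, Fc receptor genes in bold), in MPP3 and MPP4. Fcgr3 in MPP3 stands at 0.708, and the 10 other genes lie between -0.103 and 0.239.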

How the data were processed

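RNA of sorted progenitors was hybridized to Affymetrix mouse Gene ST 1.0 arrays. Each deposited value is a rank-based score, for which the authors applied RMA (version not given in the sources used here) and then mapped the quantiles of every array to a standard exponential reference. The values were used as deposited and carry ranks, so differences between low probe sets are compressed. The number of arrays limits the precision.

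Of 22115 probe sets, 19980 were listed in the annotation of the array and 2135 were not. Those with several symbols (744) were left out, and for 76 genes with several probe sets the one with the highest mean was taken, which left 19155 genes. Symbols were updated through a RefSeq gene table of GRCm38.p6, where 71 had no match. No probe set was left out as dim, and each Fc receptor gene had 1.

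Each comparison was fitted on the arrays of its 2 groups, and the difference between age differences on all 14, with lmFit and eBayes of limma 3.58.1 in R 4.3.3. P-values were two-sided and Benjamini-Hochberg adjusted over all genes, with a threshold of 0.05. The methods name SAM, which draws splits of the arrays, and limma was used in its place. Single genes were also compared by an exact permutation test over arrays (scipy 1.17.1). The procedure was tested on simulated data. The array sets are 2 clusters of the arrays by the correlation of the dimmest probe sets, as normal scores. They divide arrays and are no groups of the study.

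The genes, the pathway and marker lists and the tests were chosen with earlier results of these data known. From each pathway list the genes that passed in a comparison, and otherwise the 2 with the largest moderated statistic, were named, with the 5 closest genes of each Fc receptor gene (gene models named Gm or Rik left out) and the gate genes. Cfap126, Adamts4, Tomm40l and the lowest and highest genes of the marker lists were named after their values had been seen, as were the genes that passed in an alternative fit. Some genes of the pathway and marker lists, and Ly6a of the gate, were not analysed here, and each list is given with the number of its genes that were measured. Figures were drawn with matplotlib 3.10.9. The alternatives were array weights, robust estimation with a variance trend, 1 fit of all 4 groups, a replicate block, other scalings, a filter on dim genes, every probe set, the array sets, and each array left out in turn. The fits without the arrays with Xist signal and within set 2 were added after the data were seen.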

Additional observations from a re-analysis of the deposited data

Results flagged for a closer look

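Pag1, which encodes an adaptor that recruits the inhibitory kinase Csk, had a normalized value of 0.811 on young MPP4 replicate 1, far from the other 4 young MPP4 arrays at 0.606 to 0.654. The gap to the nearest array was 0.766 of the whole range, above Dixon's critical value of 0.71 for 5 arrays. Chance gives such a gap in about 1 in 20 groups, and 27 groups were looked at.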

How the results depend on the processing

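The direction and the side of the threshold of a result were kept in most alternatives. In the main fits 0 of 5 Fc receptor genes and 0 of 66 pathway genes were called in each contrast. A fit with less power keeps that side too, so the kept side says little. Fcgr3 was higher in old than in young MPP3 (0.525 to 0.817) and lower in MPP4 than in MPP3 (-0.326 to -0.236 in young mice, -1.10 to -0.809 in old mice) with each array left out in turn, and in the other fits at 0.601 to 0.716, -0.298 to -0.258 and -0.993 to -0.875 on the deposited scale.

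Some calls differed between fits, and the cause was not tested. Of the Fc receptor genes, Fcgr3 was the 1 called in old MPP4 versus MPP3 with 1 fit of all 4 groups, with normal scores and with the array set as a term, and the 1 called in young mice and in the difference between age differences with array weights. In the same order, the fits of the old mice called 18 higher and 9 lower, 3 and 5, and 39 and 12 of all 19155 genes. For the difference between age differences, array weights called 281 positive and 293 negative of all genes. Of the pathway genes, 1 fit of all 4 groups called 1 (Cd247) in old versus young MPP3, where 2 higher and 7 lower of all genes were called. Array weights called 1 (Clec4e) in old versus young MPP4, 8 in MPP4 versus MPP3 of young mice (Cd247, Dok3, Fcrla, Hcst, Lcp2, Pik3r1, Plcg2 and Tyrobp) and 4 in the difference between age differences (Cd247, Fcer1a, Ms4a2 and Tec). In young mice 2 (Cd247 and Pik3r1) were called with the array set as a term and 6 (Fcrla, Grb2, Hcst, Lcp2, Nckap1l and Tyrobp) within set 2 alone, where 162 higher and 134 lower, and 824 higher and 668 lower, of all genes were called. With each array left out in turn, the pathway count in the difference between age differences ran from 0 to 1, which was Ms4a2 without old MPP3 replicate 3. Without that array 8 positive and 2 negative of all genes were called. Over all genes array weights called 0 between old and young MPP3, 149 higher and 155 lower in old than in young MPP4, and 933 higher and 875 lower in MPP4 than in MPP3 of young mice, against 0, 0 and 25 in all.

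Differences close to 0 changed sign. For Fcgr1 the age difference was -0.0781 in MPP4 within set 1, and -0.0546 in MPP3 and -0.0474 in MPP4 with the array set as a term. Its difference between age differences was -0.0693 with array weights, -0.0233 with normal scores, -0.00717 with the array set as a term, -0.0132 without the arrays with Xist signal, and -0.0550 to 0.0395 with each array left out in turn. For the age difference in MPP4, Fcgr2b was -0.00783 with array weights and -0.00150 to 0.0785 with each array left out, Fcgr3 was 0.00495 without the arrays with Xist signal and -0.0170 to 0.0201 with each array left out, and Fcgr4 was 0.0101 within set 1. In MPP4 versus MPP3 of young mice, Fcgr4 was -0.0303 within set 1 and -0.00391 to 0.0210 with each array left out. Fcer1g was 0.0247 there with array weights, 0.138 without the arrays with Xist signal, 0.0532 within set 2 and -0.163 to 0.0459 with each array left out, and its difference between age differences was -0.0749 within set 1.

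Replicate numbers paired the arrays at most in part. Correlations of same-numbered arrays, with group means removed, ran from -0.192 to 0.407, the highest between replicate 1 of young MPP3 and of young MPP4. Some arrays were closest to their own number and others were not. With the replicate block no gene was called in any contrast (0 instead of 25 in young mice), and the age difference of Fcgr3 in MPP4 was 0.000472. A second probe set could not be tried, as each Fc receptor gene has 1, and set 1 and the arrays without Xist signal hold all old arrays, so the old population comparison has no such fit. The filter on dim genes drops the Fc receptor genes whose mean is below 0.695.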
